A study of Rattus norvegicus with 24 samples.

Results

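The subject here is how much the expression of each liver gene differed among rats that ate the same diet. Liver mRNA of male Wistar rats was profiled after 42 days on a semi-synthetic diet with 1% cholesterol, given alone (Ch) or with 5% lyophilised kiwifruit of the cultivar Geneva (ChGENE) or Hayward (ChHAYW), so all 3 groups carried the cholesterol load. Each group had 8 arrays of 1 colour, labelled as 8 biological replicates, and all 24 of the 24 arrays were used. A probe entered where the scanner software marked its spots as well above background on all 24 arrays, which held for 14045 of 30367 probes and for 9920 of 19999 gene symbols. Levels are log2 intensities minus the 75th percentile of their array, so a level of 0 is the brightness of that percentile. The mean of the diet was subtracted from each probe, and probes were ranked by the pooled SD of what remained, the within-diet SD. The diets were not compared with each other in level, and each diet lay on a slide of its own, so that subtracting the diet mean also removed the slide. The age of the rats and the hour of dissection are not given in the sources used here. Per the labels the livers were kept cold overnight before they were frozen, while the paper describes prompt collection and frozen storage.

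Some liver genes are set by signals that can differ between animals kept alike. Interferons switch on a set of antiviral genes through transcription factors that include the IRF family, and bacterial products and cytokines switch on the acute phase response, in which hepatocytes secrete proteins such as orosomucoid. Kupffer cells, the macrophages that line the liver sinusoids, carry their own genes into any whole-liver sample. Feeding, the circadian clock and the pulses of growth hormone move other liver genes over the day.

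Before any spread could be read, 3 pairs of arrays stood apart by how alike they were. Ch 1 and 2, ChGENE 4 and 5, and ChHAYW 6 and 7 differed by a root mean square (RMS) of 0.218, 0.204 and 0.180 log2 units over the 14045 probes, while the closest of the other pairs differed by 0.345 and the median pair by 0.554. Over the 100 probes with the highest within-diet SD, the 3 pairs differed by 0.223, 0.165 and 0.320, and no other pair by less than 0.958. In probes with several spots, the noise between spots on 1 array would give an RMS of 0.122. Over the same probes the 3 pairs differed by 0.202, 0.183 and 0.166, so by more than spot noise, and no 2 arrays held identical values. The labels call all of them separate biological replicates, and whether a pair came from 1 liver was not tested. For every test and correlation the 2 arrays of such a pair were therefore averaged and counted once, which leaves 21 livers, 7 per diet, called here by their numbers (ChGENE 4+5 for the averaged pair). The ranking by SD kept all 24 arrays, and the SD with pairs averaged is given beside it.

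**Figure D1:**
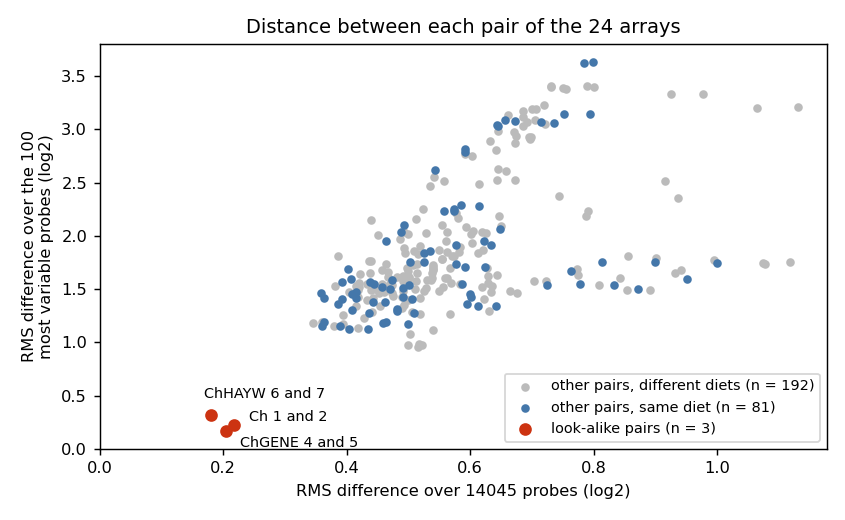
Each point is 1 of the 276 pairs of arrays, placed by the RMS difference of log2 levels over all probes that entered (x axis) and over the 100 most variable probes (y axis). The 3 look-alike pairs (red) lie at 0.320 or below on the y axis, apart from the other pairs, which begin at 0.958.

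The median within-diet SD was 0.319 log2 units, and 124 of 14045 probes (0.883%) reached an SD of at least 1, which is a threshold on a description and no test. With the look-alike pairs averaged, the median was 0.321 and the count 123, and 91 of the 100 most variable probes stayed among the first 100. The probes just inside an SD of 1 had 1.00 and those just outside 0.998. In the 8562 probes with several spots, the spot error (the SD of the mean over a probe's spots on 1 array) had a median of 0.048, against a median within-diet SD of 0.315 in these probes. Spot error leaves out noise that arises between arrays. The 10 spike-in probes, for control RNA added to each sample, had within-diet SDs of 0.431 to 0.632 (median 0.481). Set against their own mean, the 7 of them brighter than 2^8 had a median of 0.066. How much of a gene's spread was noise between arrays was not tested. Dim probes varied somewhat more than bright ones, with a median SD of 0.363 in the dimmest and 0.276 in the brightest of 4 equal parts. Probes with an SD of at least 1 occurred at every brightness, 34, 44, 25 and 21 of them from the dimmest to the brightest part.

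**Figure D2:**
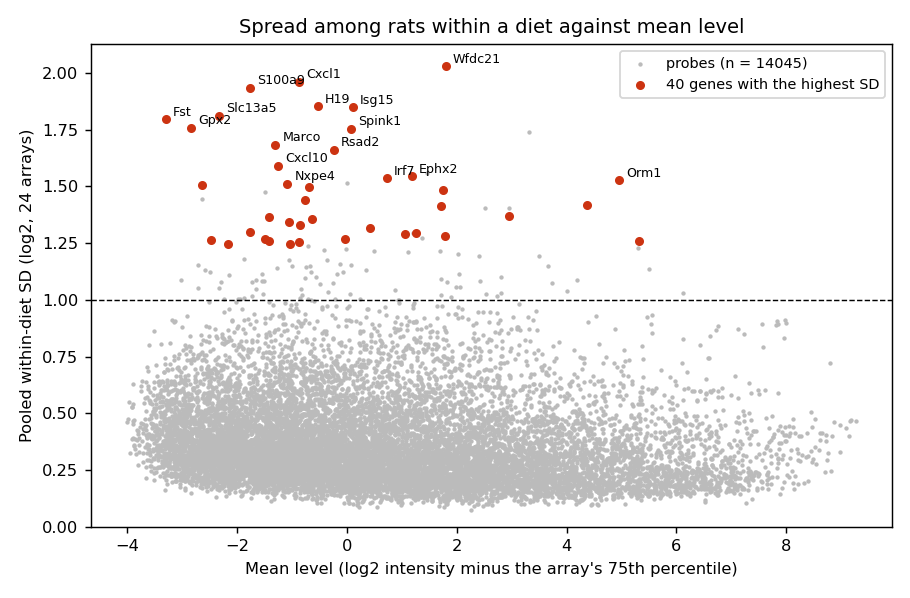
Each grey point is 1 of 14045 probes, placed by its mean level (x axis, log2 intensity minus the 75th percentile of the array) and its pooled within-diet SD over 24 arrays (y axis, log2). The 40 named genes (red) lie between 1.25 and 2.03 and span dim and bright genes, and the dashed line marks an SD of 1.

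The 40 genes with the highest SD held defence genes, secreted liver proteins and enzymes of drug and lipid metabolism. With pairs averaged, 34 of these 40 stayed among the 40 highest. By average linkage at a correlation of 0.5 over the 21 livers, 32 of the 40 genes fell into 5 groups, the largest of 14 and 12 genes. Of the 780 pairs among the 40 genes, 114 (14.6%) had a Pearson r of at least 0.7, against 3.49% of all pairs of the 9920 genes, and 16 had an r of -0.7 or lower. Since the genes were chosen for their spread and the groups from the same values, these correlations describe the livers and are not tested.

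**Figure D3:**
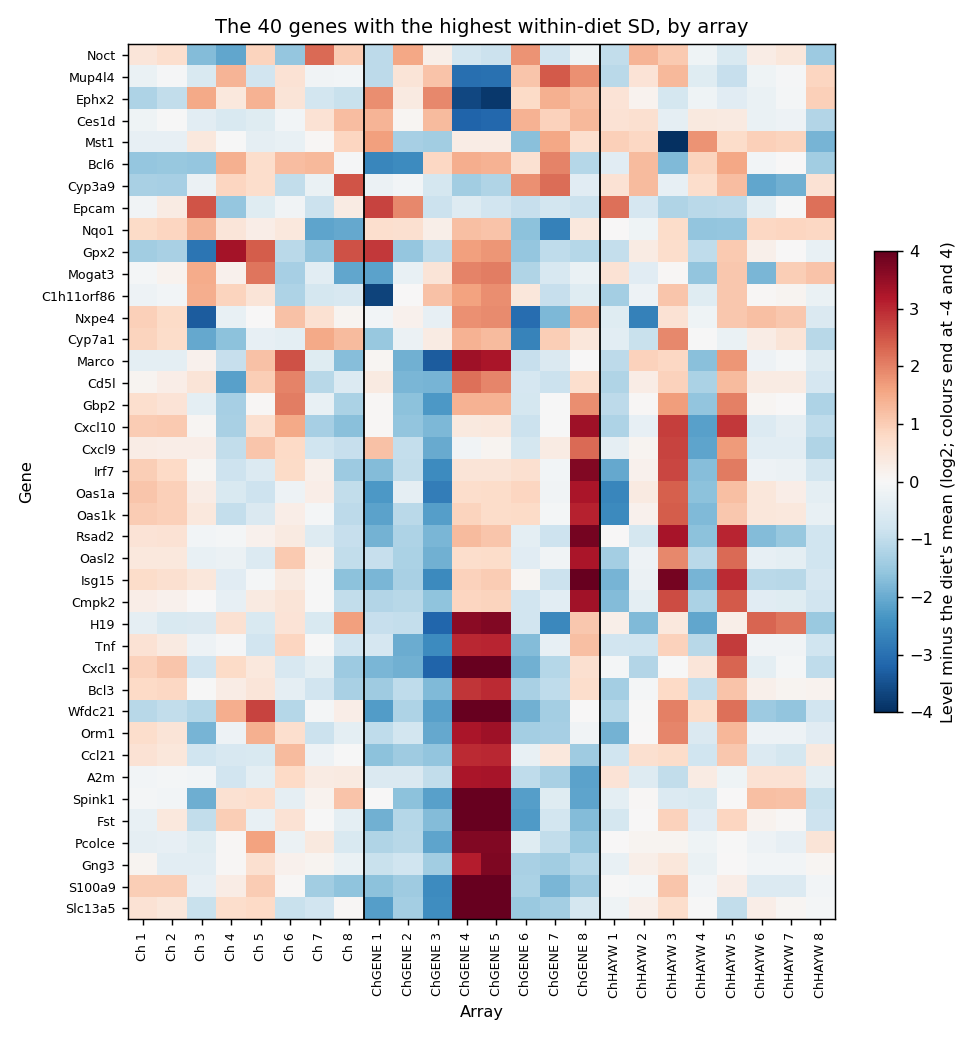
Each row is 1 of the 40 genes with the highest within-diet SD and each column 1 of the 24 arrays, coloured by the level minus the mean of its diet (log2, red above, blue below). The block of red in ChGENE 4 and ChGENE 5 and the separate block in ChGENE 8, ChHAYW 3 and ChHAYW 5 show the livers in which most genes of the 2 largest groups were high, while Marco and Cd5l of the interferon group were highest of ChGENE in ChGENE 4 and 5.

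The group of 12 held 10 genes of the interferon response and 2 genes of macrophages. It included Isg15, a ubiquitin-like protein that interferon induces, Irf7, a transcription factor that amplifies the response, Rsad2, Oas1a, Oas1k, Oasl2 and Cmpk2, which act against viruses, Gbp2, a guanylate-binding protein, and the chemokines Cxcl9 and Cxcl10, which attract T cells. The other 2 were Marco, a scavenger receptor, and Cd5l, a protein that macrophages secrete. Promoters of this group are shown because its members moved together, with capitals marking GAAA and GAAA with any 2 bases between them, on either strand, a core of the element that IRF factors bind. The sequences are from RefSeq on GRCr8, 300 bases around the start of the gene, most of them before it.
Irf7 (chr1:205799974-205800273, - strand): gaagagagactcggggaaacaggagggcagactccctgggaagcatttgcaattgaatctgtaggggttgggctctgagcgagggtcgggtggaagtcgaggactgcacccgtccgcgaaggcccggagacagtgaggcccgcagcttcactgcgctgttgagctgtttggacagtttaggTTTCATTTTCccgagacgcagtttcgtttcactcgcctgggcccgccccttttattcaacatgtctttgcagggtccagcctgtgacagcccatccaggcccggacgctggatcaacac
Oas1a (chr12:41330216-41330515, + strand): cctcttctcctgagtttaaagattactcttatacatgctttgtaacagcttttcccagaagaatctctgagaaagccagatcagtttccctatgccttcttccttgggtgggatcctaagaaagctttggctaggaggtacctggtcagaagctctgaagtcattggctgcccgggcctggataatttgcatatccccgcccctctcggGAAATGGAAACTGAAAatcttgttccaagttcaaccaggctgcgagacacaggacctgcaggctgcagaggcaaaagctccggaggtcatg
Rsad2 (chr6:48788071-48788370, - strand): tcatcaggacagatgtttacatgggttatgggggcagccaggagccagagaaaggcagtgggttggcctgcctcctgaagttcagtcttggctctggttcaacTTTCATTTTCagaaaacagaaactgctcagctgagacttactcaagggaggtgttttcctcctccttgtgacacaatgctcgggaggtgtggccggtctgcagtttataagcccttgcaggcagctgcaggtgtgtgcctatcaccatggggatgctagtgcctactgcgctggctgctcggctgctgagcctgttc
Cxcl10 (chr14:15988816-15989115, + strand): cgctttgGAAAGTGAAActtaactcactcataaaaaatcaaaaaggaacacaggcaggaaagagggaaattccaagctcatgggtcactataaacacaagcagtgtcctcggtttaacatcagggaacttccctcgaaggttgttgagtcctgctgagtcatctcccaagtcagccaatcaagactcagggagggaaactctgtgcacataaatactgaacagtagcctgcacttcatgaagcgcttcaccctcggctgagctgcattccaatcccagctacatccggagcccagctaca
The table of promoters held 10 of the 12 genes, and 6 of the 10 had a match on either strand (60%), against 1312 of 33469 promoters of the same length (3.92%). Oas1a had 2 overlapping matches, and Gbp2 and Oasl2 were the others with 1. Marco, Cd5l, Cmpk2 and Cxcl9 had none, and Isg15 and Oas1k were not in the table. A match is a stretch of letters and does not show that a factor is bound there.

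Isg15 had the widest range of the interferon genes, with a within-diet SD of 1.85 (1.95 with pairs averaged). Within Ch its level ran from -2.40 over a median of -0.78 to -0.09, within ChGENE from -2.15 over -0.46 to 4.89, and within ChHAYW from -1.18 over 0.00 to 4.50. The highest livers within their diets were Ch 1+2, ChGENE 8 and ChHAYW 3. The spread of Isg15 was not called different among diets (limma F test on absolute deviations, adjusted p 0.527).

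Irf7 followed the same livers, from -1.31 to 1.04 (median 0.23) in Ch, from -1.91 to 4.31 (median 0.48) in ChGENE and from -0.63 to 4.08 (median 1.21) in ChHAYW. Between the lowest and the highest liver of a diet this was a fold of 5.11, 74.4 and 26.2. Rsad2 ran from -1.95 to -0.46 in Ch, from -1.82 to 3.89 in ChGENE and from -1.44 to 3.51 in ChHAYW. For Cxcl10 the levels were -3.84 to -0.65, -2.54 to 2.67 and -3.0 to 2.00, with ChGENE 8 and ChHAYW 5 highest in their diets.

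Within the group of 12 the correlations ran from 0.47 to 0.98 with a median of 0.82, and the median without ChGENE 4+5 was 0.84, and its 12 genes stayed in 1 group there, which 3 genes of the other group joined. Oas1a and Oas1k, 2 genes of 1 family of synthetases whose probes may share signal, had the highest r of all pairs (0.98). Marco and Cd5l were the loosest members, with an r of 0.90 to each other and of 0.57 between Marco and Irf7. Counting 24 arrays separately moved them out of this group, which then held 10 genes.

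When the level of every other probe was fitted against Irf7 and the diet with limma, 351 of 14044 probes rose with it (2.5%) and 2 fell (0.0142%) at a Benjamini-Hochberg adjusted p under 0.05. Among the interferon list, 19 of 26 further genes rose with Irf7 and 0 fell, with a median r of 0.81 against -0.09 for all probes. Isg15 had a slope of 1.15 ± 0.069 (SE) log2 units per log2 unit of Irf7 with an adjusted p of 2.27e-09, and Mx1, an antiviral GTPase, had 0.54 ± 0.055 with 3.11e-06. The 7 list members that did not pass were Irf1, Ifih1, Mx2, Ifit2, Stat2, Bst2 and Oas1b, with an r between 0.08 and 0.61. Samd9l, which restrains viral infection and is no member of the list, was among the closest of all genes (slope 0.61 ± 0.044, adjusted p 1.76e-08). Both probes that fell belonged to Pabpc4, a poly(A)-binding protein, with slopes of -0.12 ± 0.031 and -0.13 ± 0.033.

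The call did not rest on 1 liver, since leaving out any 1 of the 21 livers left between 261 and 387 probes called. The pair of Irf7 and Isg15 had a Pearson r of 0.97 over 21 livers (permutation p 1e-05, the smallest that 100000 two-sided permutations within diets can give, adjusted over 8 pairs 8e-05) and a Spearman rho of 0.95. By diet the r was 0.91 (Ch), 0.98 (ChGENE) and 0.97 (ChHAYW), and it was 0.94 without the 2 livers farthest from the median of Irf7, ChGENE 8 and ChHAYW 3.

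Markers of immune cells were high in the same livers. Of the 10 Kupffer cell and macrophage markers that entered, 10 lay above their diet mean in ChGENE 8, in ChHAYW 3 and in ChHAYW 5, and their summed linear level (in units of the 75th percentile of the array) was 182.5, 152 and 174 there, against medians of 99.5 in ChGENE and 89.4 in ChHAYW. Of 11 T and NK cell markers on the array 4 entered, and all 4 lay above the diet mean in those 3 livers, with sums of 3.74, 3.23 and 3.04 against medians of 1.75 and 1.39. In ChHAYW 3, 8 of 10 hepatocyte markers also lay above the diet mean (sum 2852.5 against a ChHAYW median of 2008.6), while 0 did in ChGENE 8 and in ChHAYW 5. High macrophage markers were not particular to these 3 livers. All 10 macrophage markers also lay above the diet mean in ChGENE 4+5 (sum 222) and in Ch 6 (sum 134). The interferon list averaged 0.38 and 0.30 log2 units above the diet mean there. In ChGENE 8, ChHAYW 3 and ChHAYW 5 it averaged 1.87, 1.24 and 1.12. The part of these cell markers in the spread of the interferon genes was not tested. In whole liver, fewer cells of a type and less RNA per cell cannot be told apart.

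The group of 14 genes was set by ChGENE 4+5. It held Cxcl1, a chemokine for neutrophils, S100a9, a calcium-binding protein abundant in neutrophils, Tnf, the inflammatory cytokine, Bcl3, a partner of NF-kB, the acute phase proteins Orm1 and A2m, the chemokine Ccl21, Fst, which binds activins, Spink1, a trypsin inhibitor, Pcolce, which aids the trimming of procollagen, Slc13a5, a citrate transporter, Gng3, a G-protein subunit, the imprinted non-coding RNA H19, and Wfdc21. Each of the 14 was highest in ChGENE 4+5 among the 7 ChGENE livers, and this liver supplied between 32.3% and 79.2% of the summed squares of a gene, where 21 equal livers would supply 4.76% each.

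Wfdc21 had the highest SD of all 14045 probes over 24 arrays, at 2.03. With pairs averaged its SD was 1.83 and its rank 2, behind Isg15 (1.95), and without ChGENE 4+5 its rank was 24. Its levels were 0.78 to 4.63 (median 1.87) in Ch, 0.73 to 7.40 (median 1.58) in ChGENE and -1.0 to 2.72 (median 0.49) in ChHAYW. This gene was variable in every diet, with SDs of 1.47, 2.37 and 1.49, and Ch 5 was high as well as ChGENE 4+5.

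Cxcl1 ran from -2.17 to 0.29 (median -1.12) in Ch, from -3.68 to 4.19 (median -2.31) in ChGENE and from -2.57 to 0.94 (median -1.47) in ChHAYW. ChGENE 4+5 was 93.7-fold above the median of the other 6 ChGENE livers. S100a9 ran from -3.46 to -0.83 in Ch and from -3.10 to -1.43 in ChHAYW, and in ChGENE from -3.46 over a median of -2.35 to 4.11. Its SD was 1.93 over 24 arrays, 1.63 with pairs averaged and 0.74 without ChGENE 4+5, so most of its spread came from ChGENE 4+5.

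Orm1 was bright in every liver, at 3.30 to 6.58 (median 4.95) in Ch, 3.65 to 9.02 (median 4.67) in ChGENE and 2.12 to 5.96 (median 3.79) in ChHAYW. A2m ran from 0.21 to 1.79 in Ch and from 0.97 to 2.53 in ChHAYW, while in ChGENE it ran from 0.26 to 5.67 around a median of 1.41. The 2 probes of A2m agreed (r 1.00). H19 was at 2.61 in ChGENE 4+5 and low in ChGENE 3 (-4.24) and ChGENE 7 (-3.62), around a diet median of -1.98, and Cxcl1 and Tnf were also lowest in ChGENE 3.

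Without ChGENE 4+5 the 14 genes no longer formed 1 group. Cxcl1, Tnf and Bcl3 then joined the interferon and macrophage genes, which made up a group of 15, Wfdc21, Orm1 and Gng3 formed a group of 3, and S100a9 and Slc13a5 a pair. The median correlation among the 14 genes fell from 0.74 to 0.27, and 5 of the 14, namely Wfdc21, Cxcl1, H19, Orm1 and Tnf, kept an SD of at least 1. Of all 40 genes 28 did so, and over all probes the count with an SD of at least 1 was 96, against 123 before, both with the other look-alike pairs averaged (on single arrays 85, against 124). Gng3 went from rank 105 with pairs averaged (44 on 24 arrays) to rank 7718, and Pcolce, A2m, Fst and Slc13a5 went to SDs of 0.56, 0.57, 0.64 and 0.65.

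**Figure D4:**
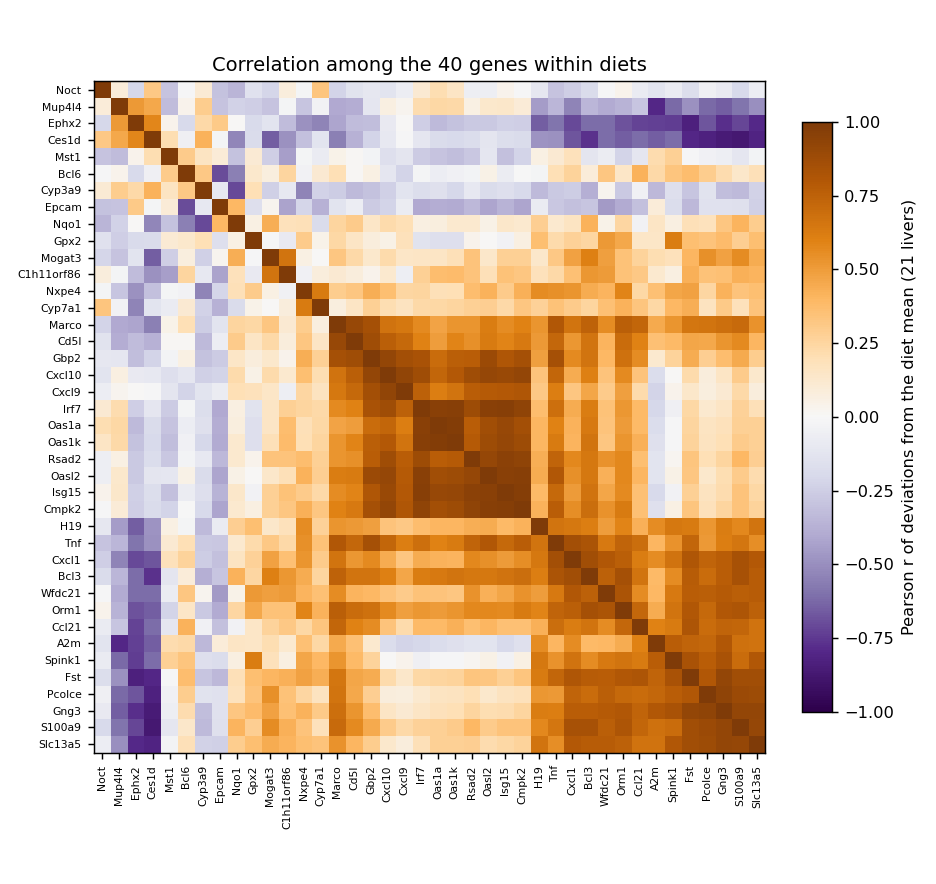
Each cell is the Pearson r between 2 of the 40 genes with the highest SD, over 21 livers after the mean of each diet was subtracted, in the order of average linkage. The 2 dark brown blocks are the interferon and macrophage genes (median r 0.82) and the genes high in ChGENE 4+5 (median r 0.74), and the purple bands are Ephx2, Ces1d and Mup4l4, which ran against the second block.

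Ephx2, the soluble epoxide hydrolase, and Ces1d, a carboxylesterase, were low in ChGENE 4+5. Ephx2 was at -2.89 there and between 1.22 and 2.77 in the other ChGENE livers, and Ces1d at 1.13 against 4.38 to 5.69. Mup4l4, of the major urinary proteins, stood at -0.85 against a diet median of 3.24. The genes of this family are near copies, so their probes may share signal. The lowest correlation among the 40 genes was that of S100a9 with Ces1d (-0.87). Without ChGENE 4+5 the r of Ephx2 and Ces1d turned from 0.58 to -0.32 and both SDs fell under 1.

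All 10 Kupffer cell and macrophage markers lay above the diet mean in ChGENE 4+5, with a summed level of 222 against a ChGENE median of 99.5, and all 8 endothelial markers did, at 47.2 against 36.3. Of 8 neutrophil markers on the array 2 entered, S100a9 and Camp, and only S100a9 was above the mean there. The drug metabolism list averaged -0.95 log2 units below its diet mean in this liver, the PPAR-alpha targets -0.61 and the acute phase list 1.22 above it, each the most extreme of the 21 livers. The part of these cell markers in the spread of the 14 genes was not tested.

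Fitted against A2m, which stood in for Lcn2 as the acute phase reference because Lcn2 did not enter, 18 of 14043 probes rose (0.128%) and 25 fell (0.178%). Of 27 further acute phase genes 0 passed (1348 probes had an unadjusted limma p under 0.05), although their median r was 0.36 against -0.06 for all probes. Masp1, a protease of the complement lectin pathway, had a slope of 0.28 ± 0.041 (adjusted p 0.0120) and Gsta2, a glutathione transferase, -0.47 ± 0.082 (adjusted p 0.0128). Without ChGENE 4+5 the number called was 0, and with all 24 arrays counted separately it was 1003, so this result rests on that liver and on how it was counted. A2m and Orm1 had an r of 0.44 over 21 livers (permutation p 0.148) and of -0.19 without ChGENE 4+5 and ChGENE 8. Cxcl1 was the single gene of 11 in this group with a promoter in the table that held GGGA and TTCC with any 2 bases between them, an NF-kB element, on either strand, against 435 of 33469 promoters (1.3%), and the capitals mark 2 overlapping matches.
Cxcl1 (chr14:17479272-17479571, - strand): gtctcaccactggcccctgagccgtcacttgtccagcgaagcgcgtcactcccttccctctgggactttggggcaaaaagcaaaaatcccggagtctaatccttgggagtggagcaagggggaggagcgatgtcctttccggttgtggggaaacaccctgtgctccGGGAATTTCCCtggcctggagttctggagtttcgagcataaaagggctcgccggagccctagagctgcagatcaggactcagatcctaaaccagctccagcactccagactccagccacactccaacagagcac

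Of the remaining genes several were extreme in ChGENE 1, which supplied the largest deviation of Bcl6, Epcam and C1h11orf86. Gpx2, a glutathione peroxidase first known from the gut, had an SD of 1.76 (1.82 with pairs averaged). It ran from -5.06 to 1.20 in Ch, a fold of 76.6, from -4.01 to 0.35 in ChGENE and from -4.97 to -2.88 in ChHAYW, where its SD was 0.79 against 2.49 and 1.76. Ch 4 (1.20), Ch 8 (0.41), ChGENE 1 (0.35) and Ch 5 (0.29) were the highest, so the livers high in Gpx2 were not those high in interferon genes. Nqo1, a quinone reductase, had an SD of 1.27 and was lowest in ChGENE 7 (-3.23), and its r with Gpx2 was 0.06 while that with Cyp3a9, a cytochrome P450, was -0.71. Cyp3a9 itself ran from -1.71 to 2.14, from -2.64 to 0.89 and from -2.80 to 0.48.

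Cyp7a1, the rate-limiting enzyme of bile acid synthesis, had an SD of 1.25 (1.29 with pairs averaged). Its levels were -1.97 to 1.60 (median -0.23) in Ch, -4.31 to -0.32 (median -1.31) in ChGENE and -2.21 to 0.83 (median -1.35) in ChHAYW. The range within each diet was a fold of 8.26 or more. Nxpe4 went with it at an r of 0.63, but its second probe had an r of 0.22 to the first, so the value holds for 1 probe only. In the bile acid list 5 of 17 genes were among the 5% of probes with the highest SD, among them the bile salt export pump Abcb11 (1.15), the sterol 12-alpha-hydroxylase Cyp8b1 (0.92) and the bile acid importer Slc10a1 (0.87), yet their median pairwise r was 0.03, so the members did not vary together.

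Bcl6, a transcriptional repressor that growth hormone regulates in liver, had an SD of 1.51 with pairs averaged and spanned -0.60 to 3.99 in ChGENE, 1.08 to 4.06 in Ch and -1.15 to 2.17 in ChHAYW. Epcam, a marker of bile duct cells, ran against it (r -0.70). It was high in ChGENE 1 (2.04), ChHAYW 8 (1.90), ChHAYW 1 (1.88), Ch 3 (1.61) and ChGENE 2 (1.24). Of 8 cholangiocyte markers 4 entered, Epcam, Sox9, Krt8 and Krt18, with a median pairwise r of 0.01, so these 4 did not rise as a set. Krt19, Krt7, Cftr and Spp1 did not enter, so whether they rose with Epcam cannot be told. Mst1, a plasma protein that acts on macrophages and is made by hepatocytes, lay between 4.77 and 6.00 in Ch, between 2.30 and 5.61 in ChGENE and between -0.29 and 5.77 in ChHAYW. ChHAYW 3 was lowest and supplied 41.7% of its squares, and ChGENE 2 (2.65), ChGENE 3 (2.58), ChGENE 6 (2.30) and ChHAYW 8 (2.12) were low as well. Noct, nocturnin, a clock-controlled gene, ranged from -3.0 to 1.36 in Ch. Mogat3, which makes diacylglycerol, and C1h11orf86 varied together at an r of 0.66.

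Lists of pathways placed these genes among the rest. Over all 9920 genes, 5.08% were among the 5% of probes with the highest SD and the median SD was 0.315. In the interferon list 13 of 27 genes (48.1%) were there, with a median SD of 0.67 and a median pairwise r of 0.66. Growth hormone targets had 7 of 20 genes, drug metabolism 8 of 26, immediate early genes 7 of 23, fatty acid synthesis 5 of 19 and the acute phase 7 of 28. In these 5 lists the median pairwise r lay between 0.01 and 0.35, and without ChGENE 4+5 those of the acute phase and of drug metabolism went from 0.35 to 0.09 and from 0.26 to 0.07. Scd, the fatty acid desaturase, had an SD of 1.12. Hspa1b, an inducible heat shock protein, reached 1.24 while the median of its list was 0.29.

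Of the fasting and glucocorticoid response 2 of 20 genes were there (median SD 0.49), of the PPAR-alpha targets 2 of 25 (0.38), of ATF4 and ER stress genes 4 of 24 (0.45), of heat shock genes 1 of 19 and of mitosis and DNA replication genes 1 of the 7 that entered (0.27). The median pairwise r was 0.35 for the PPAR-alpha targets (0.26 without ChGENE 4+5) and 0.34 for the heat shock genes.

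At the other end, 0 of 26 cytosolic ribosomal protein genes and 0 of 22 genes of mitochondrial respiration were among the most variable 5%, with median SDs of 0.22 and 0.20 and median pairwise r of 0.50 and 0.34. Sterol synthesis and uptake stayed near the median of all genes, at 0.32, with 1 of 22 genes in the upper 5%, the feedback regulator Insig1 (0.87). The 10 named genes with the lowest SD were Ciao2b, Scaf11, Kat7, Upf3a, Paip2, Sugp1, Fam120a, Ap3b1, Exoc3 and Stard3, with SDs from 0.073 to 0.098. The spot error was 0.035 for Ciao2b, of the machinery that loads iron-sulfur clusters, but 0.107 for Exoc3, above its SD of 0.098. The second probe of Paip2 had an r of 0.0086 to the first.

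Of the marker lists, Kupffer cells and macrophages had the highest median pairwise r, at 0.863, close to the 0.860 of the erythroid genes. Of 10 genes 6 were among the most variable 5%, and 100% of the pairs were above 0.5. The 4 T and NK cell markers that entered also had 100% of their pairs above 0.5 (median r 0.79), but 0 of them were among the most variable 5%. Marco ran from -3.45 to 0.80 (median -2.15) in Ch, from -3.69 to 2.98 (median -0.92) in ChGENE and from -3.50 to -0.04 (median -1.96) in ChHAYW, and Adgre1, which encodes the macrophage antigen F4/80, had an SD of 1.03. In Ch, where ChGENE 4+5 plays no part, Ch 6 was highest with a sum of 134 against a median of 80.8, and without ChGENE 4+5 the median r was 0.84. Erythroid genes, which come from blood in the tissue, also moved as a unit (5 of 7 entered, median r 0.86), with sums from 213 to 751. Hepatocyte markers, all 10 of which entered, had a median SD of 0.38 and an r of 0.13, and their sum lay between 1685 and 3406 in every liver. Stellate cell and fibroblast markers had 0 of 8 genes among the most variable 5% (median r -0.04), endothelial markers 1 of 8 (0.31) and intestinal markers 1 of 4 (0.23). Of the adipocyte, exocrine pancreas and skeletal muscle markers 1 gene each entered, Cfd, Ctrb1 and Tnnc2, with SDs of 0.57, 0.35 and 0.88, and of the 5 B and plasma cell markers on the array 0 entered.

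Of the 19 clock genes that entered 2 were among the most variable 5%, with a median SD of 0.48. Dbp, a transcription factor of the clock's output, ran from 0.36 to 3.80 (median 1.5) in Ch, from 1.03 to 2.75 (median 1.88) in ChGENE and from 0.12 to 2.19 (median 1.24) in ChHAYW. Bmal1, the core activator whose rhythm runs opposite to that of Dbp, spanned -2.72 to 0.42, -0.78 to 0.73 and -0.39 to 0.86. Their r was -0.73 over 21 livers (permutation p 0.00162, adjusted over 8 pairs 0.00648; rho -0.61, p 0.00942), at -0.71, -0.79 and -0.80 in the 3 diets, and -0.81 without Ch 7 and Ch 4. Ch 7 was highest in Dbp and lowest in Bmal1 of its diet. Adjusted over all probes in limma the pair did not pass (0.257), and of 18 further clock genes 0 passed against Dbp. The nearest others were Wee1, a cell cycle kinase under clock control (r 0.69), and Tef, a relative of Dbp (r 0.68).

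**Figure D5:**
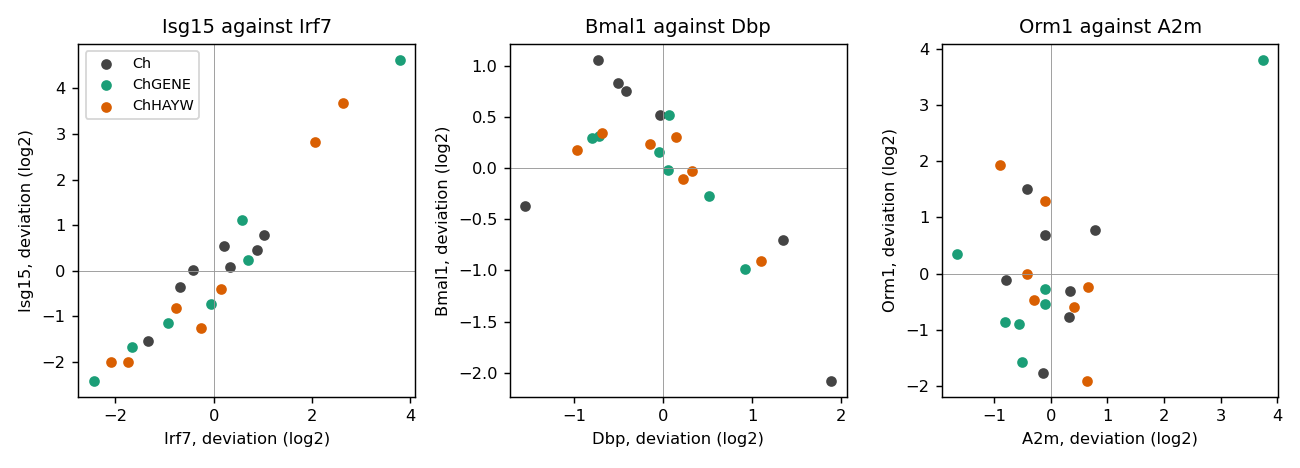
Each point is 1 of 21 livers (look-alike arrays averaged), coloured by diet, with the level of 2 genes minus their diet mean on the axes (log2). Isg15 rose with Irf7 in all 3 diets (r 0.97), Bmal1 fell as Dbp rose (r -0.73), and the r of Orm1 and A2m (0.44) rested on the ChGENE liver at the upper right, ChGENE 4+5.

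Against the other reference genes 1 probe or 0 passed, with the count for Idi1 resting on single livers. Of 14042 probes 0 rose with Dbp (0%) and 1, Tubb2a, fell (0.00712%, r -0.86), with 592 at an unadjusted limma p under 0.05. With Scd 1 of 14044 rose (0.00712%), its near relative Scd4, whose probe may share signal, and 0 fell (0%), with 447 unadjusted. With Idi1, an enzyme of sterol synthesis that replaced Sqle because that gene did not enter, 0 rose (0%) and Zfp18 fell (0.00712%, r -0.88), with 4097 unadjusted. Idi1 itself went with array brightness at an r of -0.38, and its 1 call became 1296 without Ch 3, 1058 without Ch 4, 382 without ChHAYW 3 and 116 without ChHAYW 8. With Igfbp1 and with Egr1 0 probes rose (0%) and 0 fell (0%), with 979 and 1041 unadjusted, and with Cish, a feedback inhibitor of growth hormone signalling, Rgs3 rose (0.00712%, r 0.83) and 0 fell (0%), with 209 unadjusted.

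Of the remaining pairs 0 passed after adjustment over the 8 pairs. Igfbp1 and Pck1, both genes of the fasted liver, had an r of 0.55 (permutation p 0.0332, adjusted 0.0886), which was 0.32 without ChGENE 1 and ChHAYW 5. Scd and Fasn had 0.29 (p 0.259), Egr1 and Jun 0.22 (p 0.400), Cish and Igf1 0.21 (p 0.376) and Idi1 and Hmgcs1 -0.11 (p 0.645), each a permutation p.

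The width of the spread was compared among diets by a limma F test on the absolute deviations. At an adjusted p under 0.05, 0 of 14045 probes differed (0%), with a smallest adjusted p of 0.195 and 1323 probes (9.42%) at an unadjusted p under 0.05. With 24 arrays counted separately 10 probes were called, so the number called depended on how the look-alike pairs were counted. The median SD was 0.352 in Ch, 0.284 in ChGENE and 0.269 in ChHAYW, over 7 livers each. The arrays of Ch were also dimmer, with 75th percentiles of 188 to 653 against 388 to 775 and 409 to 1049. Ch 4 was the dimmest array and had the fewest probes above background (49.7%). Its RMS deviation over all probes (0.666) was the largest of the livers. Without Ch 4 the median SD pooled over the diets was 0.296, against 0.319 with it. Its part in the median SD of Ch was not tested. Of the 100 probes with the highest SD in each diet, ChGENE and ChHAYW shared 44, Ch and ChGENE 18 and Ch and ChHAYW 17, as a percent of either list, where 0.712% of all probes make up such a list. The 13 probes shared by all 3 diets included Wfdc21, Marco, Nxpe4, Nqo1, Cyp3a9, Bcl6, Cxcl10 and Epcam.

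Array brightness moved with the main axis of the spread. The first principal component of the centred levels held 37.5% of the variance, and its scores had an r of 0.75 with the log2 of the 75th percentile over 21 livers (permutation p 5e-04; rho 0.74, p 0.00046), at 0.87, 0.82 and 0.32 in the 3 diets and 0.70 without Ch 4 and ChHAYW 3. Over all probes 16.2% had an r with brightness of at least 0.5 and 23.7% of -0.5 or lower, but among the 100 most variable probes these were 4% and 1%. Irf7 had an r of -0.14 with brightness, Wfdc21 -0.13 and Dbp -0.02. The part of brightness in the spread of less variable genes was not tested.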

How the data were processed

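Liver RNA was hybridised to 1-colour Agilent rat arrays with 62976 spots. The deposited intensities, per the file headers, are the authors' processed signal of Feature Extraction 10.10.1.1, on a linear scale, after background and spatial correction and without scaling between arrays. The deposited value table held the same intensities (0 of 1511424 cells differed). The scaling used in the study was not stated in the sources read. Control spots and outlier flags were left out, log2 values of a probe's spots were averaged, and the 75th percentile of each array was subtracted. A probe entered if at least a share of 0.5 of its spots was well above background on all 24 arrays. Symbols came from the array files, updated through RefSeq accessions for 18643 of 30367 probes.

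The within-diet SD has 21 degrees of freedom (18 with pairs averaged). Tests used limma 3.58.1 in R 4.3.3 with Benjamini-Hochberg adjustment over all probes that entered, and permutations within diets for pairs. The design had planned these tests on 24 arrays, and they were run on 21 livers once the look-alike arrays were seen. P-values refer to slopes on a reference gene, to unequal spread among diets or to correlations, over these 21 livers. The within-diet SD has no p-value. Scripts were tested on simulated data. The precision is limited by the number of arrays and by the signal over background, and 0 spots were saturated.

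Genes named are the 40 with the highest SD (1 probe each, without genes known by a LOC or RGD number alone), the 10 with the lowest SD, up to 4 members of each of 16 pathway and 13 marker lists with the highest SD, 8 reference genes with their partners, and up to 5 genes that rose and 5 that fell with each reference. Lists and cell markers apart, any other gene was singled out once its values were known. A list gene is represented by its brightest probe. The members, lists and tests were chosen with earlier results of these data known. Promoters are from RefSeq, GRCr8. Alternatives were other normalizations, background correction, filters on dim probes, MAD, array brightness as a term, a replicate block, each liver left out, and 24 arrays counted separately. Replicate numbers did not pair the samples. Of 24 same-numbered pairs 8 had a correlation of deviations above 0.1, against 62 of 168 pairs with different numbers. The median correlations were -0.045 and 0.026. Some genes are not reported here.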

Additional observations from a re-analysis of the deposited data

Results flagged for a closer look

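Of 156 sets of 7 livers (52 named genes in 3 diets), 15 (9.62%) had a highest or lowest liver whose gap to the next, divided by the whole range, was above Dixon's critical value, where chance flags about 1 in 20. Most of these genes were chosen for a high SD, which 1 extreme liver raises, so the share flagged cannot be set against that rate, and flags in the same liver are not separate events. ChGENE 4+5 was that liver in 11 of the 15, as the highest for Gng3 (0.877), S100a9 (0.832), Fst (0.782), Slc13a5 (0.755), Pcolce (0.718), A2m (0.713), Wfdc21 (0.664), Spink1 (0.659) and Orm1 (0.644), and as the lowest for Ephx2 (0.725) and Ces1d (0.712). The 2 arrays averaged there were labelled as separate rats, and the cause of the pattern was not tested.

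In Ch, Nxpe4 was apart in Ch 3 at -4.58, where the next liver was at -1.57 (0.670). In ChGENE, Igfbp1 was lowest in ChGENE 1, at 2.82 against 4.02 (0.576), and Cxcl10 was highest in ChGENE 8, at 2.67 against -0.33 (0.576). In ChHAYW, Bmal1 was lowest in ChHAYW 3, at -0.39 against 0.41 (0.645).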

How the results depend on the processing

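The number of probes called against Irf7 moved beyond 1.5 times under 1 alternative, probes above background on at least 12 arrays (550), and lay between 261 and 387 when each liver was left out. The r of Irf7 with Isg15 lay between 0.95 and 0.97, that of Dbp with Bmal1 between -0.89 and -0.58, and that of array brightness with the first component between 0.53 and 0.82 when each liver was left out. With the filter at 12 arrays 341 probes had an SD of at least 1 and 29 of the 100 most variable were shared, with normexp background correction 73 had it, and with an array or look-alike pair left out 85 to 135 on single arrays, the lowest without ChGENE 4 and 5. With MAD in place of SD 54 of the 100 were shared.

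With 24 arrays counted separately, an alternative chosen after seeing the data, the calls were 1003 for A2m, 2570 for Idi1, 4 for Egr1, 2 for Scd, 0 for Cish and 10 for the spread among diets, the r of A2m with Orm1 was 0.60 (permutation p 0.034) and that of Idi1 with Hmgcs1 reversed to 0.092. With a replicate block on the 24 arrays, although the numbers do not pair the samples, the calls were 516 for A2m, 1281 for Idi1, 24 for Egr1, 9 for Dbp, 0 for Scd and 0 for Cish, and these 2 correlations were 0.52 (permutation p 0.0144) and 0.14. The filter at 12 arrays gave 4 calls for Dbp, 4 for Idi1, 2 for Scd, 0 for Cish and 3 for the spread. Taking array intensity out gave 0 for Idi1, 0 for Cish and 1 for the spread. Cyclic loess gave 3 for Dbp, 188 for Idi1 and 2 for Scd, quantile normalization 70 for A2m, 0 for Idi1 and 2 for Scd, normexp 2 for Scd and 0 for Cish, and median scaling 0 for Dbp and 0 for Idi1 and an r of Idi1 with Hmgcs1 of 0.084. The cause of these moves was not tested.

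Leaving out each liver gave 0 to 90 calls for A2m (0 without ChGENE 4+5, 23 without ChGENE 3, 24 without ChGENE 7, 90 without ChGENE 8), 0 to 1296 for Idi1 (1296 without Ch 3, 1058 without Ch 4, 382 without ChHAYW 3, 116 without ChHAYW 8, 2 without Ch 1+2), 0 to 2 for Cish, 0 to 2 for Dbp, 1 to 2 for Scd, 0 for Egr1 and Igfbp1 and 0 to 2 for the spread. The r of A2m with Orm1 went from -0.43 (without ChGENE 4+5) to 0.56, of Idi1 with Hmgcs1 from -0.35 (without ChGENE 4+5; the lowest without a single array was -0.15, without Ch 5) to 0.094 (without Ch 7), of Igfbp1 with Pck1 from 0.20 (without ChGENE 1) to 0.62, of Egr1 with Jun from -0.059 (without ChHAYW 4) to 0.32, of Cish with Igf1 from 0.11 to 0.36 and of Scd with Fasn from 0.22 to 0.43. Signal over background limits the genes described: 16322 probes did not enter, Sqle and Lcn2 among them.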
